A study of Mus musculus with 6 samples.

Results

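Cluster 8 of the control uterine epithelium held 123 of the 2583 epithelial cells of the corn oil (CO) control library that had both a cluster number and a column of raw counts, which is 4.76% of them (exact binomial 95% interval 3.97 to 5.66%). Its members were the cells given the number 8 in the authors' deposited annotation, from a clustering of the CO epithelial cells on their own. That annotation lists 124 such cells, and 1 of them had no column of counts in the table used here. The series holds 48699 cells with counts in all. The authors assigned clusters 3, 8 and 14 to developing glands, cluster 13 to mature glands, cluster 12 to stem cells and the other 10 clusters, with 2095 cells, to the luminal epithelium. Cluster 8 is described here against cluster 3 (204 cells), against cluster 13 (62 cells) and against all 2460 other CO epithelial cells.

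The uteri came from CD-1 mice, an outbred strain, at 12 months of age. The mice had been given corn oil alone or diethylstilbestrol (DES), a synthetic estrogen, at 1 mg/kg/day on days 1 to 5 after birth. The cells came from 1 CO library, made from the pooled uteri of 2 mice, and from 1 DES library, made from those of 4 mice, and RNA was also measured in place in 2 CO and 2 DES tissue sections of 1 mouse each. All cells of cluster 8 thus came from 1 library in which the 2 mice were not marked, so that a cell state and a mouse cannot be told apart. When the study chose tissue for the sections, DES tissue was examined for uterine adenocarcinoma. The study describes cancer regions and basal cells in DES tissue. In the sections DES exposure and the presence of cancer therefore cannot be told apart.

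Uterine glands form after birth, when the luminal epithelium buds into the stroma, and they need signals of the Wnt family and the transcription factor FOXA2. Their secretions, which include the cytokine LIF, are needed for an embryo to implant. Mature glands of the mouse secrete the serine proteases PRSS28 and PRSS29 and the protease inhibitor SPINK1, while the luminal epithelium lines the cavity and answers to estrogen with secreted proteins such as lactotransferrin (Ltf) and lipocalin 2 (Lcn2).

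The 123 cells carried 2025230 unique molecular identifiers (UMIs, each standing for 1 captured RNA molecule), 14735 per cell at the median, from 3187 to 50089, and 3516 genes were found in the median cell. The median was 18535.5 UMIs in cluster 3, 12201 in cluster 13 and 25654 in luminal cells. Mitochondrial genes took a median of 8.62% of a cell's UMIs in cluster 8, 7.30% in cluster 3 and 7.09% in cluster 13. Levels are given in CPM, which scales the UMIs of a gene, added up across a cluster, to the same total for every cluster, with exact Poisson 95% intervals. A ratio of CPMs has an exact conditional binomial 95% interval. With 1 library per condition no test was possible in single cells, and these intervals cover counting error only. Cells were clustered on these same genes, so a difference between clusters is a description and not a test.

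The 5 genes that mark the cluster, Prap1, S100g, Napsa, Sult1d1 and Gpx3, were all at a higher CPM in cluster 8 than in any of the other 14 CO clusters. Prap1 (proline-rich acidic protein 1, chr7:140093395-140097200) encodes a secreted protein of the uterus and gut. Its level was 57405 CPM (57076 to 57736) in cluster 8, so that 1 gene gave 5.74% of all UMIs of the cluster, against 49058 CPM in cluster 3, 1308 CPM in cluster 13, 41168 CPM in cluster 14, 282 CPM in cluster 12 and 2377 CPM in luminal cells. S100g (chrX:162961992-162964599) encodes calbindin-D9k, a protein that binds calcium and is under estrogen control in the uterus. It was at 10263 CPM (10124 to 10404) in cluster 8, 7162 CPM in cluster 3, 355 CPM in cluster 13 and 72.6 CPM in luminal cells. Napsa (chr7:44572380-44586862) encodes the aspartic protease napsin A. Its CPM was 2466 (2398 to 2536) in cluster 8, 2347 in cluster 3, 66.3 in cluster 13 and 21.9 in luminal cells. These 3 genes separated clusters 8 and 3 from cluster 13.

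Sult1d1 and Gpx3 instead each stayed within 2-fold across clusters 8, 3 and 13. Sult1d1 (chr5:87554645-87569027), a sulfotransferase, was at 870 CPM (829 to 911) in cluster 8, 727 CPM in cluster 3, 847 CPM in cluster 13 and 35.0 CPM in luminal cells. Gpx3 (chr11:54902453-54910377), the secreted glutathione peroxidase, was at 1147 CPM (1100 to 1194), 942 CPM, 807 CPM and 14.6 CPM in the same order. Positions are those of mouse genome build GRCm38 (GENCODE release M21). Against all other CO epithelial cells the ratio was 16.6 for S100g (16.3 to 16.8), 13 for Napsa (12.6 to 13.4), 12.7 for Gpx3 (12.1 to 13.3), 9.99 for Prap1 (9.93 to 10.1) and 9.12 for Sult1d1 (8.65 to 9.61).

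**Figure D1:**
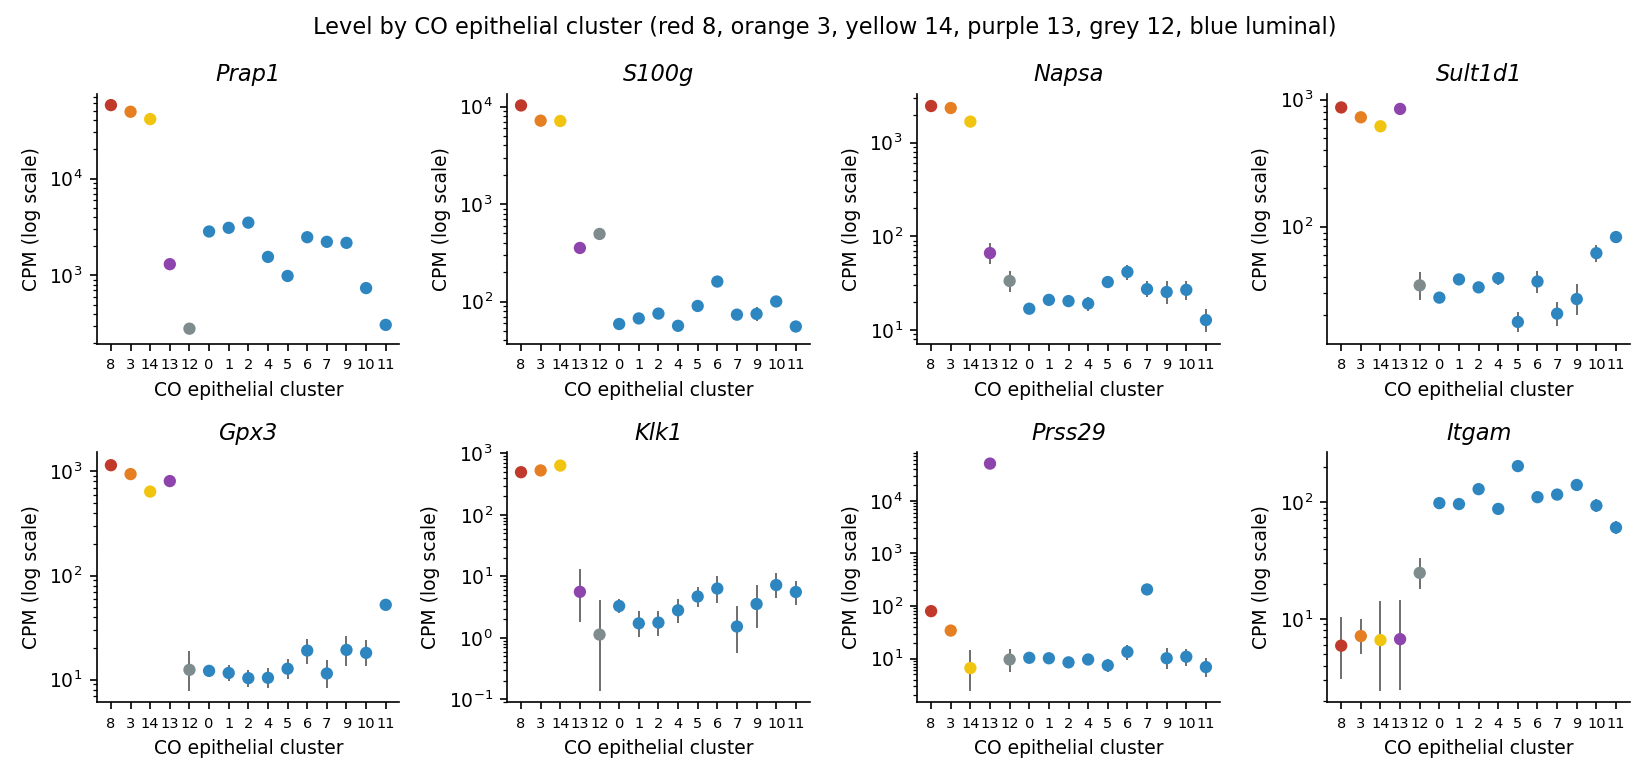
Each panel plots 1 gene, with the 15 CO epithelial clusters on the horizontal axis and the level in CPM on a logarithmic vertical axis. Points are summed UMIs and bars are exact Poisson 95% intervals. Prap1, S100g and Napsa are high in clusters 8, 3 and 14 and low in 13, Sult1d1 and Gpx3 are high in all 4, Klk1 is near 0 in cluster 13 and 496 CPM in cluster 8, Prss29 peaks in cluster 13 at 51277 CPM, and Itgam is at 5.93 CPM in cluster 8.

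The markers were found in most single cells of cluster 8 after each cell was thinned to 3000 UMIs. A UMI of Prap1 was present in 99.2% of the cells (100% without thinning), of S100g in 96.7% (100%), of Napsa in 92.7% (99.2%), of Sult1d1 in 86.2% (99.2%) and of Gpx3 in 83.7% (95.9%). Endothelial cells, which should lack these genes (322 cells, median depth 6309 UMIs), gave a background after thinning of 81.7% for Prap1, 25.5% for S100g, 7.14% for Napsa, 3.73% for Sult1d1 and 5.90% for Gpx3. The share for Prap1 was therefore little above that of free RNA, and its level rather than its presence marks the cluster. At this depth 82 of the 123 cells (66.7%) held UMIs of all 5 genes, against 0 of 2076 luminal cells (a count of 0 allows at most 0.145%), and 114 (92.7%) held at least 4, against 9 of 2076 luminal cells (0.434%). In cluster 3 the corresponding numbers were 119 and 188 of 204 cells, and in cluster 13 they were 6 and 15 of 60 cells. The cells were clustered on these same genes, so these shares are a description and do not support the label.

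The stromal, endothelial, myocyte and basal cell lists were lower in cluster 8 than in the CO cells that are not epithelial, while 1 gene gave most of the lymphocyte list and 1 most of the myeloid list. The summed level of the stromal list was 410 CPM in cluster 8, 442 CPM in cluster 3 and 23502 CPM in the CO cells that are not epithelial, with Pdgfra at 0 UMIs in cluster 8. The endothelial list summed to 5.43 CPM (Tie1 at 0), the myocyte list to 11.4 CPM (Myh11 at 0) and the basal cell list to 0.988 CPM (Krt5 at 0). The lymphocyte list summed to 42.0 CPM in cluster 8, 51.0 CPM in cluster 3 and 7.01 CPM in luminal cells, close to the 47.7 CPM of the CO cells that are not epithelial, with Cd8a and Nkg7 at 0, but Ptprc alone gave 37.5 CPM of it and Cd3e was at 0.988 CPM. The myeloid list summed to 124 CPM in cluster 8, 448 CPM in luminal cells and 212 CPM in the CO cells that are not epithelial, with C1qb and Adgre1 at 0, and Cd14 alone gave 99.2 CPM of it (400 CPM in luminal cells). The part of other cells in these values was not tested. The luminal list summed to 67.2 CPM against 805 CPM in luminal cells. The list of 22 cycling genes summed to 156 CPM in cluster 8 and 180 CPM in cluster 3, and 30 of 123 cells held 3 or more UMIs of it. Top2a, a topoisomerase of cycling cells, gave 19 UMIs in 13 cells and Mki67 gave 5 UMIs in 5 cells.

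Prap1 and S100g, the most abundant marker genes, are shown by the 250 bases before their RefSeq start (build GRCm38.p6), with matches to the forkhead motif TGTTTAC on either strand in capitals, because FOXA2 is the forkhead factor of uterine glands. The windows are chr7:140093146-140093395 on the plus strand for Prap1 and chrX:162964600-162964849 on the minus strand for S100g.

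Prap1: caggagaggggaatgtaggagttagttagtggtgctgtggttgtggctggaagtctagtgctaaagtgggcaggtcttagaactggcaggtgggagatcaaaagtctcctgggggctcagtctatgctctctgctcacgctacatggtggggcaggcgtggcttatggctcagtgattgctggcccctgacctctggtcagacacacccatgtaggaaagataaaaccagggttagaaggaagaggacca

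S100g: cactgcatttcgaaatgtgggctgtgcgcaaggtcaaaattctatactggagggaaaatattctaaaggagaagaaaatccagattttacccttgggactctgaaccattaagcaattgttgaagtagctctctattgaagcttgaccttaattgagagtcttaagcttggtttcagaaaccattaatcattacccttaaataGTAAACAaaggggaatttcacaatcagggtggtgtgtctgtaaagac

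The Prap1 window held 0 matches and the S100g window held 1, as GTAAACA. Of the 27025 promoters of the same length 3.54% held the motif, and of the 233 genes highest over other epithelium described next, 178 were in the table and 10 of them (5.62%) held it. A match describes letters only and is not a site. Foxa2 itself was nearly absent from cluster 8, with 4 UMIs in 3 cells (1.98 CPM), against 82.0 CPM in cluster 13.

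At a minimum of 50 CPM, 233 of 2435 genes (9.57%) were at least 2-fold above all other CO epithelial cells. The last genes inside the limit were Chdh and Itpr2 at 2.01-fold and Cmtm8 at 2.02-fold, and the next outside it were Ptgs2 and Trim44 at 2.0-fold and Hif1a at 1.98-fold. Of the 233 genes, 96 had their highest level in cluster 8, 53 in cluster 3, 46 in cluster 14 and 33 in cluster 13. Nearly all (232) were also 2-fold above luminal cells. Against cluster 3 alone 222 of them were within 2-fold, 10 were higher and 1 was lower, whereas against cluster 13 110 were within 2-fold, 114 were higher and 9 were lower.

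The largest ratio belonged to Acod1, the enzyme that makes itaconate in activated cells (chr14:103046977-103056573), at 53.8 CPM (44.2 to 64.9) against 1.54 CPM in the other epithelial cells, a ratio of 35.0 (26.7 to 45.8), or 23.2 without cells above 2 times the median UMIs of their cluster. That level rested on few cells, since 15 of 123 cells held its 109 UMIs and 3 cells held 57.8% of them. Tgfb2, a ligand of the transforming growth factor beta family (chr1:186622792-186705989), followed at 129 CPM against 4.87 CPM, a ratio of 26.6 (22.6 to 31.2). Among the next were 3 enzymes. Hpgds, a prostaglandin D synthase, was at 329 CPM against 19.6 CPM (ratio 16.8). Hsd11b1, which regenerates active glucocorticoid (chr1:193221634-193264075), was at 633 CPM against 40.2 CPM (ratio 15.7). Cyp26a1, which breaks down retinoic acid, was at 240 CPM against 18.5 CPM (ratio 13). Also among the 15 highest were 4 genes of transport, although of the ion and water transport list 4 of 15 genes were 2-fold higher and 5 lower (median ratio 0.768). Aqp8, a water channel (chr7:123462291-123468004), was at 627 CPM against 37.7 CPM (ratio 16.6), and Slc5a11, a sodium-coupled inositol transporter, at 151 CPM against 9.10 CPM (ratio 16.6). Atp6v0d2, a subunit of the proton pump of acidic compartments, was at 227 CPM against 15.3 CPM (ratio 14.9), and Abcb1b, a drug efflux pump, at 931 CPM against 69.1 CPM (ratio 13.5).

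The rest of the 15 highest ratios were S100g, Napsa, Wfdc10 (411 CPM, ratio 16.7), Pinlyp (412 CPM, 14), Efhd1 (271 CPM, 13.3) and Cwh43 (126 CPM, 13.2). Outside the 15, Wfdc2, a secreted protein with a protease inhibitor fold, was at 7302 CPM against 2462 CPM, the metalloprotease Mmp7 at 751 CPM against 79.4 CPM and the tissue kallikrein Klk1 (chr7:44225360-44229618) at 496 CPM against 44.2 CPM, while of tissue kallikreins and serine proteases 2 of 10 genes were 2-fold higher and 3 lower. Among genes of lysosomal and aspartic proteases 7 of 20 were 2-fold higher and 3 lower, with a median ratio of 1.16 where the median over all genes was 0.919. They included cathepsin B (Ctsb), at 2733 CPM against 830 CPM, and cathepsin D (Ctsd), at 863 CPM against 324 CPM. Of the genes for conjugation and steroid metabolism 7 of 15 were higher and 6 lower. Of growth factor ligands and receptors 6 of 17 were higher and 2 lower, with Fgfr2, a receptor for fibroblast growth factors, at 53.8 CPM against 7.12 CPM. Over all genes at 10 CPM in either group 8.41% were 2-fold higher in cluster 8 and 14.1% lower.

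The luminal and estrogen response lists were low in cluster 8 relative to the rest of the epithelium. All 8 genes of the luminal list were 2-fold lower, with a median ratio of 0.0987, but the study chose this list on these cells, so it is not independent evidence of its direction. Itgam, an integrin subunit, was at 5.93 CPM against 101 CPM, 17.1-fold lower (9.79 to 33.1), and Lrmp was 17.6-fold lower. The lowest ratio was that of the water channel Aqp4, at 1.98 CPM against 64.2 CPM, 32.5-fold lower (12.7 to 119). The small proline-rich proteins Sprr1a and Sprr2b were 23.0-fold and 17.1-fold lower, and the protease inhibitor Spink12 was 13.3-fold lower, at 119 CPM against 1586 CPM. Also among the 10 lowest were Ifi203 (14.6-fold lower), Egfl6 (13.9-fold) and the unnamed transcripts AC167121.2 (12.5-fold) and RP23-148L8.3 (11.7-fold). Of the steroid receptor and estrogen response list 10 of 13 genes were lower and 1 higher (median ratio 0.281). Ltf was at 546 CPM against 2374 CPM and Lcn2 at 958 CPM against 7458 CPM, while the estrogen receptor gene Esr1 was at 222 CPM against 227 CPM, a ratio of 0.976 whose interval of 0.886 to 1.07 includes 1. The progesterone receptor gene Pgr was at 21.7 CPM against 77.3 CPM. Against cluster 3 the estrogen response list was not low, with 0 of 11 genes 2-fold lower and a median ratio of 1.34, and against cluster 13 it had 2 of 13 lower and 1 higher (0.686).

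Interferon response genes were lower too, with 17 of 20 at 2-fold or more below and 1 above (median ratio 0.247; 1.24 against cluster 3), as were 11 of 17 cell cycle genes and none above (0.263; 0.845 against cluster 3, with 0 of 7 genes 2-fold lower). The other epithelial cells include the cycling clusters 4 and 14, where Birc5 was at 190 and 184 CPM. It was at 5.93 CPM in cluster 8 and at most 10.7 CPM in the remaining clusters. Trefoil factors and mucins were lower in 3 of 3. Claudins and junction genes were lower in 10 of 20 and higher in 3, with Cldn10 at 884 CPM against 211 CPM. The pan-epithelial list was 2-fold lower in 3 of 7 genes (median ratio 0.524). By contrast the secretory pathway list, the proteins that load and fold secreted cargo, was within 2-fold in 26 of 27 genes with a median ratio of 1.03.

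Clusters 8 and 3 shared their gland genes, and the largest differences between them included immediate early genes, which cells switch on within minutes of a stimulus. Over all genes at 10 CPM in either cluster 1.43% were 2-fold higher in cluster 8 and 4.3% lower. Of the immediate early list 25 of 29 genes were 2-fold lower in cluster 8 and all 29 had a ratio below 1, with a median of 0.170 where the median over all genes was 1.03. Fos was at 382 CPM (355 to 410) against 2141 CPM in cluster 3, 5.61-fold lower (5.21 to 6.04). Jun was at 166 CPM against 1292 CPM, 7.77-fold lower. Both encode subunits of the AP-1 transcription factor. Egr1, a zinc finger factor, was at 126 CPM against 915 CPM, 7.24-fold lower.

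The 10 lowest ratios against cluster 3 were led by Egr3 (chr14:70077203-70082614), at 2.96 CPM against 86.2 CPM, 29.1-fold lower (13.2 to 79.7). Atf3, a factor of the stress response, was 21.5-fold lower (17.3 to 27.1), with 860 CPM in cluster 3. The nuclear receptor Nr4a1 (chr15:101254269-101274795) was at 22.2 CPM against 311 CPM, 14-fold lower (10.4 to 19.3). Krt17 (24.8-fold), Arc (16.4-fold), Adm (16-fold), Dusp5 (13.3-fold), Klf6 (13.1-fold), Plaur (11.9-fold) and Socs3 (11-fold) made up the rest. Of these, Egr3, Atf3, Nr4a1 and Klf6 encode transcription factors, Dusp5 and Socs3 encode proteins that damp signalling, and Adm encodes the peptide adrenomedullin.

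The difference was carried by single cells across the whole cluster. Immediate early genes gave a median of 0.291% of a cell's UMIs in cluster 8, with quartiles of 0.179 and 0.468% and a range of 0.0919 to 1.61%. In cluster 3 the median was 1.75% and the range 0.342 to 3.73%. Of the 123 cells 72 lay below the lowest cell of cluster 3, 121 lay below its lower quartile of 1.38% and 0 lay above its median. The medians were 0.825% in cluster 13, 1.34% in cluster 14 and 0.403% in luminal cells, and 8 of the 15 CO clusters, cluster 8 among them, had a median below 0.5%, so that a low share was not particular to cluster 8. The gland genes did not move with it, since the 6 genes of the developing gland list had a median ratio of 0.992 between clusters 8 and 3 and none was 2-fold apart. Median depth was lower in cluster 8 than in cluster 3. In the tissue sections, which were not dissociated, immediate early genes gave 0.250 and 0.231% of UMIs in the CO spots rich in epithelial genes. The part of depth, of dissociation with trypsin and of the mouse of origin in the difference between clusters 8 and 3 was not tested.

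**Figure D2:**
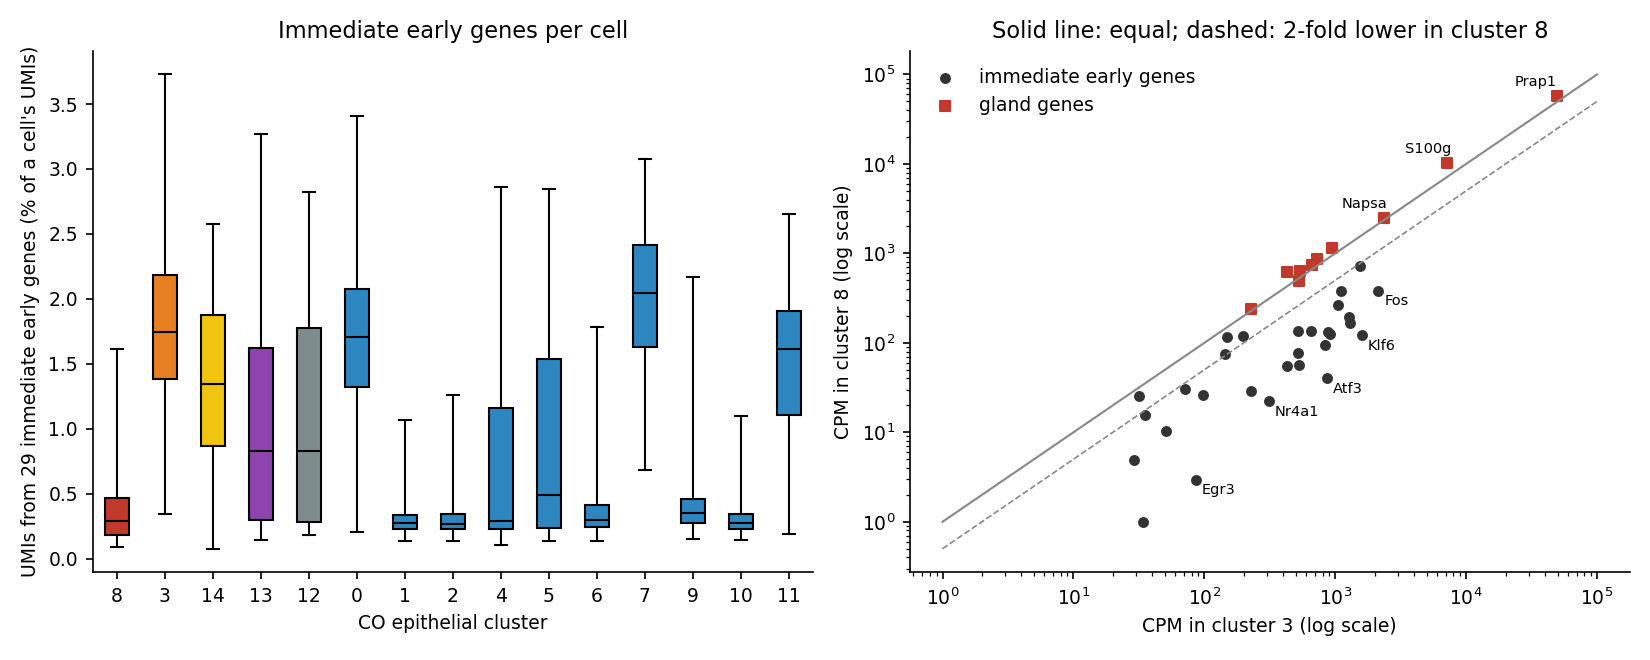
The left panel shows the percent of each cell's UMIs from 29 immediate early genes for the 15 CO clusters, with boxes from the lower to the upper quartile, a line at the median and whiskers to the lowest and highest cell. The right panel sets the CPM in cluster 8 against that in cluster 3 on logarithmic axes for the immediate early genes and the gland genes, with a solid line of equal level and a dashed line 2-fold lower. The box of cluster 8 (median 0.291%) lies below that of cluster 3 (1.75%), and the gland genes lie near the line of equal level while 25 immediate early genes lie below the dashed line.

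Fos and Nr4a1, both lower in cluster 8 than in cluster 3, are shown by the 250 bases before their RefSeq start, with the half-site TGACG of the cyclic AMP response element in capitals on either strand (as CGTCA on the other strand). The windows are chr12:85473640-85473889 and chr15:101266596-101266845, both on the plus strand of GRCm38.p6.

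Fos: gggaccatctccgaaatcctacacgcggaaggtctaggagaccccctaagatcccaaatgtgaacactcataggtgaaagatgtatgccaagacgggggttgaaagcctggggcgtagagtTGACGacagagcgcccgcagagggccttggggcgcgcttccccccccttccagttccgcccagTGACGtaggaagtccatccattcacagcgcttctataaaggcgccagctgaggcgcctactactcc

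Nr4a1: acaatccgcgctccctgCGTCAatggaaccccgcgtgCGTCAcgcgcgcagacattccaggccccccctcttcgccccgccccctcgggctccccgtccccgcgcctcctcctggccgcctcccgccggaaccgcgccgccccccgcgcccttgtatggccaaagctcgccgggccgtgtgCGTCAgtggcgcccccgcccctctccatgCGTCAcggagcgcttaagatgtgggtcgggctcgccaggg

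The Fos window held 2 matches and the Nr4a1 window held 4. Of the immediate early list 21 genes were in the table and 13 of them (61.9%) held the half-site, against 19.8% of all 27025 promoters and 42 of the 178 genes (23.6%) high in cluster 8. The motif does not overlap TGTTTAC in its letters, and a match is a description.

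Few genes were higher in cluster 8 than in cluster 3. The 10 highest ratios were those of Acod1 at 53.8 CPM against 7.78 CPM (ratio 6.92, 4.74 to 10.3), Yam1 at 144 CPM against 22.3 CPM (6.46), Lars2 (3.13), the copper transporter Slc31a2 (3.1), the unnamed transcript RP23-81C12.3 at 2507 CPM against 856 CPM (2.93), the chemokine Cxcl17 at 418 CPM against 144 CPM (2.89), Tgfb2 at 129 CPM against 45.4 CPM (2.85), the aminopeptidase Anpep (2.69), Kap (2.61) and Spink1 at 121 CPM against 47.7 CPM (2.55). The value of Spink1 rested on 24 cells, 3 of which held 63.8% of its 246 UMIs, and its ratio was 1.15 without cells that held 3 or more UMIs of mesothelial, endothelial, pericyte or lymphocyte markers. Of the oxidative phosphorylation list 31 of 34 genes had a ratio above 1 and none reached 2-fold (median 1.23).

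Against cluster 13, cluster 8 kept the developing gland genes and was low in the genes of the mature gland list. Over all genes at 10 CPM in either cluster 6.62% were 2-fold higher in cluster 8 and 14.1% lower. All 6 genes of the developing gland list were 2-fold higher (median ratio 40.4) and all 5 of the mature gland list lower, both lists having been drawn from, or named for, these cells. The summed level of the mature gland list was 223 CPM in cluster 8, 93.1 CPM in cluster 3 and 84983 CPM in cluster 13.

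The highest ratio was that of Car4, a carbonic anhydrase at the cell surface (chr11:84957786-84966044), at 240 CPM against 1 UMI (1.12 CPM) in cluster 13, a ratio of 214 (38.3 to 8476). Hsd11b1 was at 633 CPM against 4.49 CPM (ratio 141, 54.9 to 518) and Klk1 at 496 CPM against 5.61 CPM (88.3, 37.7 to 273). Wnt7b, a Wnt ligand of the uterine epithelium, was at 81.0 CPM against 1 UMI (ratio 72.1, 12.8 to 2866). Mmp7 (74.3), Efhd1 (48.2), Prap1 (43.9), Igfbp3 (37.5), Olfm1 (37.3) and Napsa (37.2) completed the 10 highest. Most of these genes were at a like level in cluster 3, where Car4 was at 228 CPM, Klk1 at 530 CPM and Igfbp3 at 356 CPM.

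The lowest ratio was that of the keratin gene Krt83, at 1 UMI (0.494 CPM) against 435 CPM, 880-fold lower (157 to 34850). The serine protease genes Prss28 and Prss29 (chr17:25318654-25322684) followed. Prss28 was at 19.3 CPM against 15773 CPM, 819-fold lower, and Prss29 at 80.0 CPM against 51277 CPM, 641-fold lower (549 to 753). Of the 162 UMIs of Prss29 in cluster 8, 79.0% lay in 3 cells, and 25 cells held any. Scgb3a1 was 307-fold lower, Spink1 147-fold (121 CPM against 17834 CPM), Dkk3 103-fold and Tesc 83.0-fold. Bpifb5, Lyz1 and Ttr had 0 UMIs in cluster 8 and were at least 182-fold, 82.6-fold and 82.6-fold lower, taking 3 UMIs over the cluster as the limit that a count of 0 allows. Transcription factors were lower in 7 of 21 genes and higher in 1, with Sox9 at 99.2 CPM against 885 CPM and Foxa2 41.5-fold lower (15.5 to 156). Lysosomal and aspartic proteases were 2-fold higher in 8 of 18 genes and lower in 0.

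**Figure D3:**
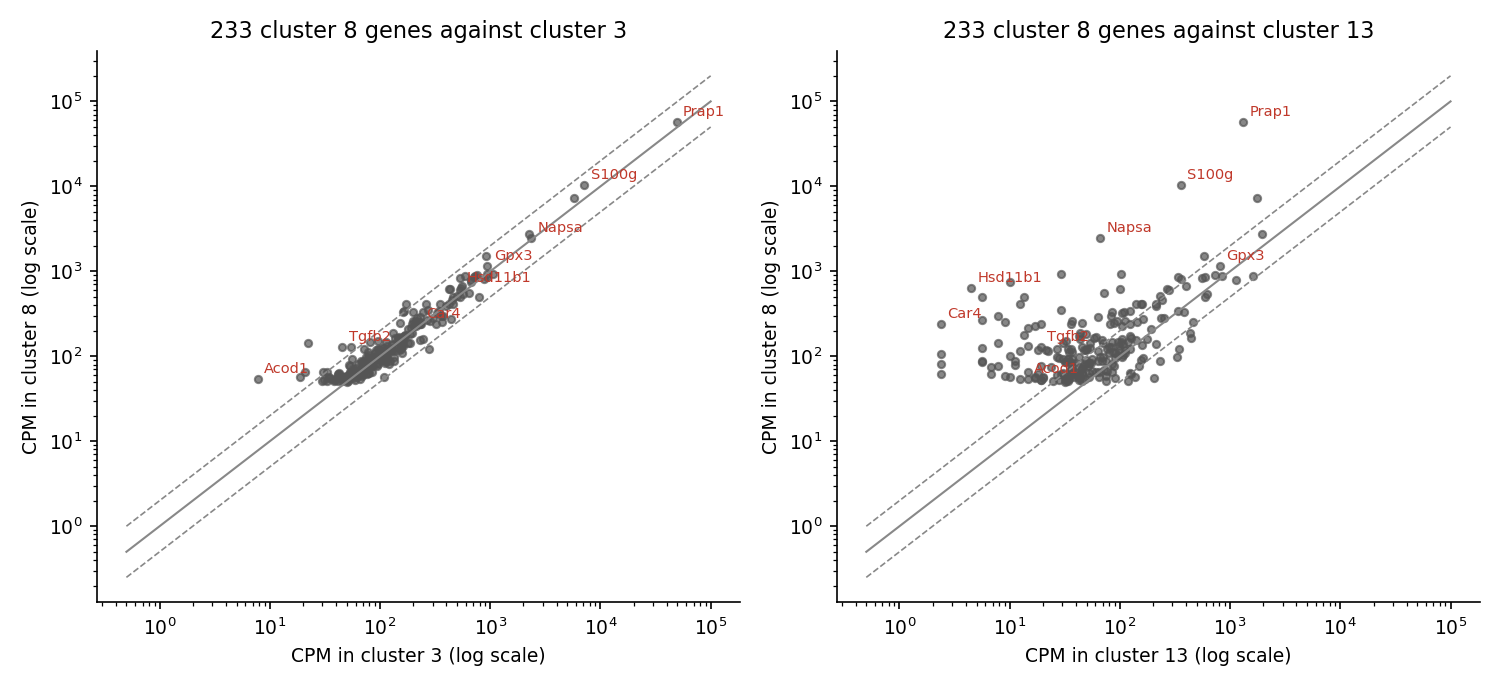
Each point is 1 of the 233 genes at least 2-fold above other CO epithelial cells in cluster 8. CPM in cluster 8 is on the vertical axis and CPM in cluster 3 (left) or cluster 13 (right) on the horizontal axis, both logarithmic. The solid line marks equal level, dashed lines mark 2-fold, and genes near or at 0 are drawn at the left edge. Against cluster 3, 222 genes lie between the lines, and against cluster 13, 114 lie above them.

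Cluster 8 was not uniform. In the authors' separate clustering of the gland cells alone, 74 of its cells fell in group 0, 40 in group 4, 5 in group 5, which also held 28 cells of cluster 13, and 2 each in groups 6 and 9. Group 0 held 12 cells of cluster 3 as well and group 4 held 1. Of 2794 genes at 50 CPM in either, 2.15% were 2-fold higher in group 0 of cluster 8 than in group 4 and 5.51% lower. Cells were grouped on these genes, so the values are a description.

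Tgfb2, Aqp8 and Klk1 were higher in group 0. Tgfb2 was at 212 CPM in group 0 and at 1 UMI (1.54 CPM) in group 4, a ratio of 137 (24.4 to 5448). Aqp8 was at 950 CPM against 87.8 CPM (10.8, 8.29 to 14.4), and Klk1 at 748 CPM against 117 CPM (6.39). Others of the 10 highest were Scg5 (13.3), Slc5a8 (11.1), Mgat4a (10.8), Folr1 (6.11), the carboxylesterase Ces2b (5.52), Trnt1 (4.69) and Nmb (4.63). Outside the 10, Hsd11b1 was at 922 CPM against 211 CPM (4.37). Prap1 was at 77089 CPM in group 0 and 28961 CPM in group 4, a ratio of 2.66.

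Acod1, the gene with the largest ratio of the whole cluster, and Ifitm1 were higher in group 4. Acod1 was at 157 CPM against 4.94 CPM in group 0, 31.8-fold higher (14.1 to 88.7), and Ifitm1, a membrane protein induced by interferon that restricts virus entry, was at 3489 CPM against 332 CPM, 10.5-fold higher (9.45 to 11.7). Ifitm6 (9.62), the lipoxygenase Alox15 (9.50), the calcium-binding Calb1 (7.86), Slc31a2 (7.06), Cdo1 (5.70), Anpep (5.21), Med24 (5.2) and Cxcl17 at 869 CPM against 167 CPM (5.2) made up the rest of the 10. Ltf was at 753 CPM in group 4 and 239 CPM in group 0, and S100g at 14493 CPM and 8699 CPM.

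The sets of 10 genes were chosen on these same cells, so their counts per cell describe the choice and support nothing further. Per 3000 UMIs, cells of group 0 held a median of 9 UMIs over the 10 genes higher in group 0 and 1 UMI over the 10 genes higher in group 4, and cells of group 4 held 1 and 15. Of the 74 cells of group 0, 64 held more of their own set, and of the 40 cells of group 4, 38 did. Both sets reached 3 UMIs in 32 of all 123 cells. Cells of cluster 3 held 5 and 2 UMIs, and cells of cluster 13 held 0.5 and 5. Median depth was like in both groups, at 14878.5 and 14532.5 UMIs, and mitochondrial genes took 7.89% of UMIs in group 0 and 10.5% in group 4. Immediate early genes gave 0.266% and 0.285% of UMIs, so that both groups lay far below cluster 3. At least 4 of the 5 label markers were present in 71 of 74 cells of group 0 and 35 of 40 of group 4. With 2 mice pooled, whether the groups follow the mice was not tested.

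**Figure D4:**
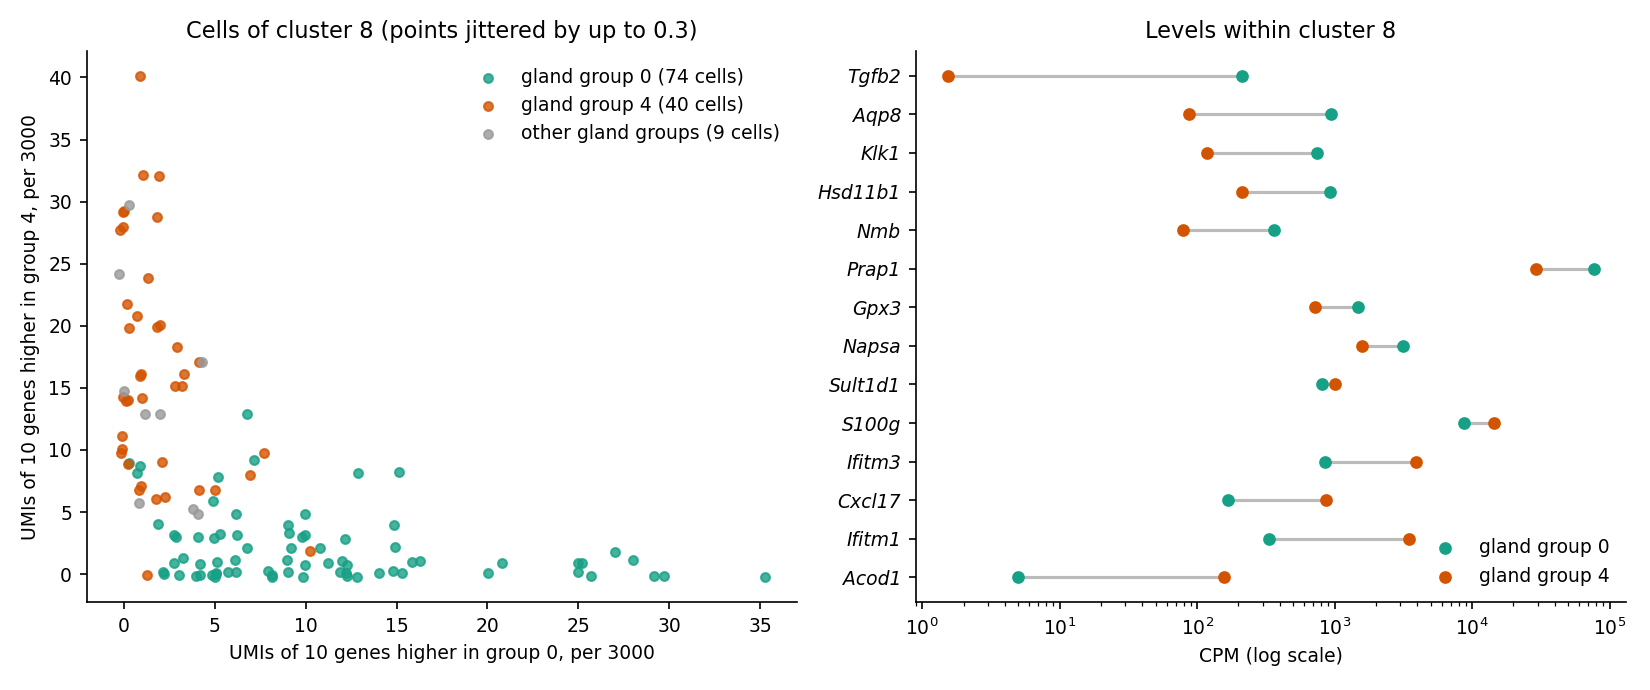
The left panel plots each cell by its UMIs per 3000 over the 10 genes higher in gland group 0 and over the 10 higher in group 4, coloured by group. The right panel sets CPM in group 0 against group 4 for 14 genes on logarithmic axes. The gene sets were chosen on these cells. Cells of group 0 (median 9 and 1 UMIs) and of group 4 (median 1 and 15 UMIs) lie along different axes, with Tgfb2 and Acod1 the farthest from equal level.

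The genes that varied most over the thinned cells of cluster 8, by the ratio of variance to mean, were Prap1 (130) and S100g (35.0), against a median of 1.09 over 1186 genes. Prap1 ranged from 0 to 574 UMIs per 3000 with a median of 138, and S100g from 0 to 163 with a median of 17. The mitochondrial genes mt-Co3 (15.2), mt-Atp6 (10.4) and mt-Co1 (9.80), Spink1 (11.8), Malat1 (10.8), RP23-81C12.3 (10.1), Ifitm1 (9.72) and Ltf (8.75) followed. This ratio grows with the level of a gene, and Prap1 and S100g were the most abundant of the 5 markers.

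No DES cell fell in the integrated cluster that held most of cluster 8. In the authors' integrated clustering of both libraries, 112 of the 123 cells fell in cluster 17, which held 134 CO cells and 0 of 5255 clustered DES epithelial cells, which allows a share of up to 0.0571%. Of the remaining CO cells of that cluster 20 came from cluster 3. The rest of cluster 8 fell in integrated clusters 13 (7 cells), 19 (3) and 6 (1). The lack of DES cells was not particular to integrated cluster 17. By the study's account CO and DES cells hardly overlapped in that clustering, and integrated clusters 13 and 19 were CO-specific as well. Those 2 held 184 cells of cluster 3 and 59 cells of cluster 13. Summed over 4608 DES epithelial cells, Prap1 was at 2471 CPM, S100g at 571 CPM, Napsa at 119 CPM, Sult1d1 at 18.6 CPM and Gpx3 at 0.957 CPM. Klk1 was at 1.79 CPM there and Hsd11b1 at 9.36 CPM. These levels are over all DES epithelial cells and stand beside 1 library, so no test was made, and 0 of the 180 barcodes shared by the libraries was in cluster 8.

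Tissue sections allowed a test. They held 1357 to 1834 spots and 9117099 to 12506177 UMIs each, and a spot can hold several cells. Of the 233 genes 93 were at least 5-fold above the CO cells that are not epithelial, and these section genes were followed. A lower value in a section can come from fewer such cells or from less RNA per cell, and these cannot be told apart. Tests were edgeR's quasi-likelihood F-test with Benjamini-Hochberg adjustment over all genes, with 2 sections per group. Their p-values rest on a spread pooled over genes, since an exact permutation test of 2 against 2 sections cannot go below 0.333.

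In whole sections 13 of 91 of these genes passed the test between DES and CO, 4 higher and 9 lower in DES, where 5.3% of all genes passed (2.67% higher and 2.63% lower). The section genes were chosen for a high level in CO cells, and DES levels had no part in the choice. The list may therefore lean towards lower values in DES, unlike all genes. The median log2 change of the 91 genes was -0.61 where that of all genes was -0.01. Without CO section 2 that median was -0.07 and the calls were 20 higher and 14 lower, and without CO section 1 they were -0.80 and 10 higher and 43 lower. By edgeR 0 of these genes passed without DES section 1 and 0 without DES section 2, with 28 at an unadjusted p under 0.05 in each case, while the medians were -0.72 and -0.62 and the calls over all genes fell from 747 to 14 and 3. Guca2b, the peptide uroguanylin, was at 9.92 and 6.25 CPM in the CO sections and 0.219 and 0.405 CPM in the DES sections, a log2 change of -4.84 ± 0.54 (SE; adjusted p = 0.0229 by edgeR). Klk1 was at 4.64 and 2.54 CPM in CO and 0.219 and 0.304 CPM in DES (log2 -3.92 ± 0.63; edgeR adjusted p = 0.0399). The DES levels of Guca2b and Klk1 rested on a few UMIs per section, so the size of these falls is uncertain. Sftpd, surfactant protein D, an innate defence lectin, was at 169 and 197 CPM in CO and 33.6 and 47.0 CPM in DES (log2 -2.38 ± 0.25; edgeR adjusted p = 0.0212). Ifitm1 was at 362 and 604 CPM in CO and 124 and 59.6 CPM in DES (log2 -2.61 ± 0.44; edgeR adjusted p = 0.0431). Lrrc31 was lower as well, from 6.40 and 12.0 CPM to 1.54 and 0.709 CPM. The CO and DES sections did not overlap for any of these 5 genes, which the rule for naming genes required.

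The 4 genes higher in DES were Hopx, at 4.96 and 10.6 CPM in CO and 59.7 and 61.6 CPM in DES (log2 2.77 ± 0.37; edgeR adjusted p = 0.0304), Wnt7b, at 35.0 and 22.4 CPM in CO and 109 and 97.7 CPM in DES (log2 1.63 ± 0.27; edgeR adjusted p = 0.0435), Cmtm8 (log2 1.2 ± 0.21) and Agps, an enzyme of ether lipid synthesis, at 27.6 and 26.2 CPM in CO and 64.4 and 72.5 CPM in DES (log2 1.14 ± 0.18). Wnt7b is on the developing gland list, as is Klk1, and the pair moved in opposite directions.

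None of the 5 label markers passed. Prap1 was at 2925 and 30907 CPM in the CO sections and at 1767 and 2949 CPM in the DES sections (log2 -3.02 ± 1.11; edgeR adjusted p = 0.188). The DES values thus lay near that of 1 CO section. S100g was at 313 and 547 CPM in CO and 336 and 361 CPM in DES (edgeR adjusted p = 0.369), and Napsa at 13.5 and 47.0 CPM in CO and 24.3 and 10.1 CPM in DES (edgeR adjusted p = 0.437). Sult1d1 was at 8.80 and 73.7 CPM in CO and 1.21 and 4.96 CPM in DES, with no overlap (log2 -3.90 ± 1.22; edgeR adjusted p = 0.141), and Gpx3 at 155 and 613 CPM in CO and 185 and 89.9 CPM in DES (edgeR adjusted p = 0.234). For 4 of the 5 markers, all but S100g, the CO sections differed by over 3-fold. The higher value of each lay in the CO section with the tissue fold, and what the tissue fold contributed was not tested. Of the muscle cell list 5 of 5 genes passed as lower in DES, and of the stromal list 3 of 9, beside which these changes stand, and the part of tissue makeup in them was not tested.

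**Figure D5:**
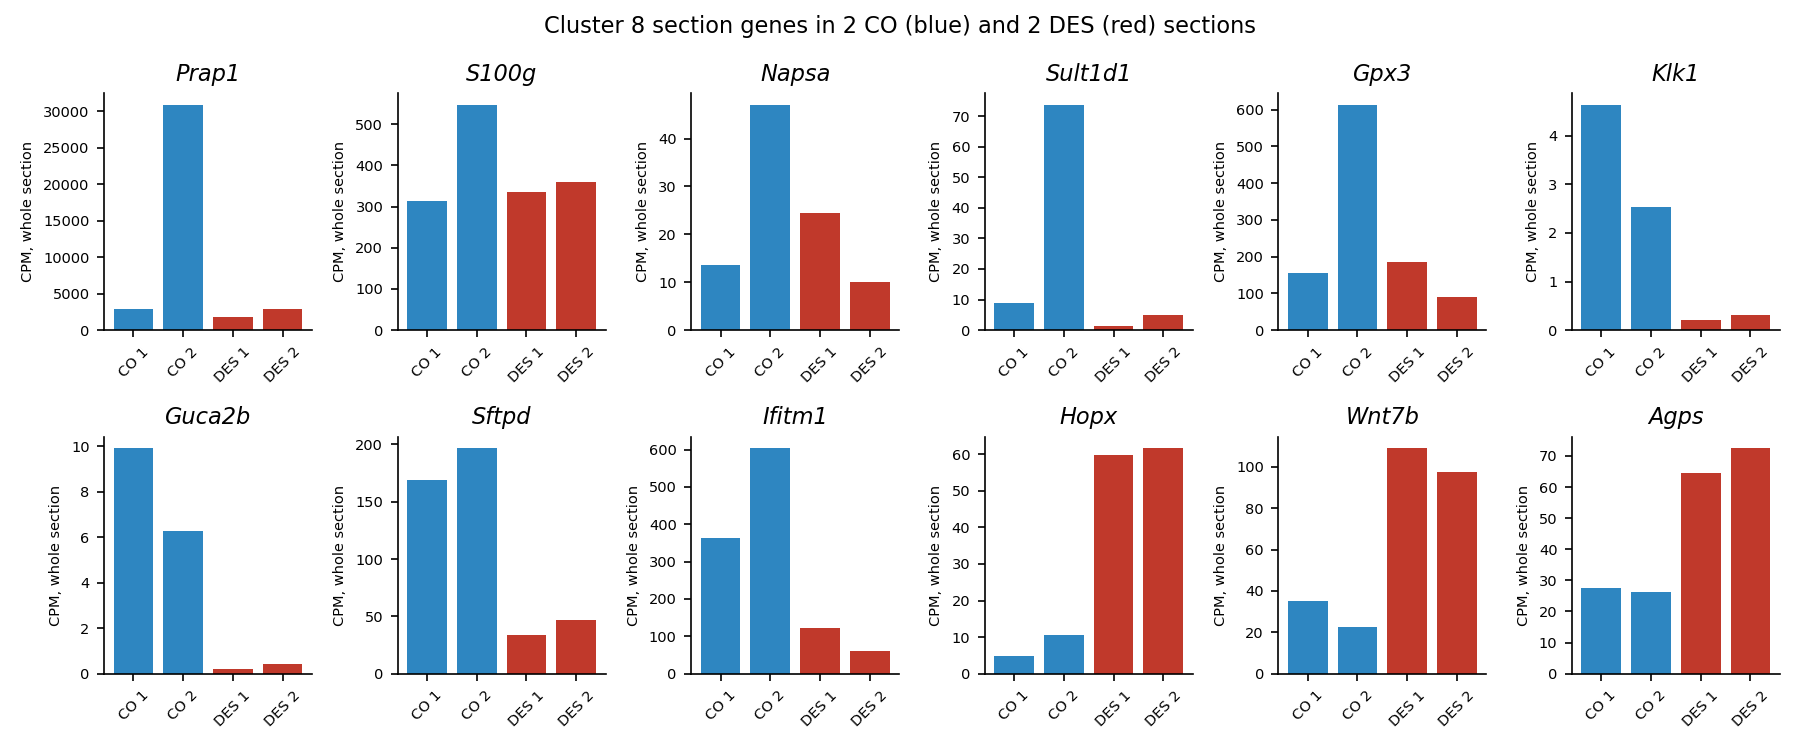
Bars give the CPM in each whole section for 12 genes, with 2 CO and 2 DES sections per panel, each bar 1 section and the axis starting at 0. Klk1, Guca2b, Sftpd and Ifitm1 are lower and Hopx, Wnt7b and Agps higher in both DES sections, while Prap1 is high in 1 CO section only (30907 CPM).

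In the 15% of spots of each section richest in 7 pan-epithelial genes, 10 of 81 genes passed, 2 higher and 8 lower, against 4.11% and 2.49% of all genes (6.59% in all). The limit that these genes were chosen on CO cells applies here too. Without CO section 2 the calls were 25 higher and 22 lower and the median log2 change was -0.19 where it was -0.91 with all sections, and without CO section 1 the calls were 8 higher and 53 lower (median -1.30). The median was -1.13 without DES section 1 and -0.91 without DES section 2. With 1 DES section left, here and in whole sections, the spread between sections came from the 2 CO sections alone. With 1 CO section left it came from the 2 DES sections alone, whereas the fit of all sections uses both pairs. Counts of calls from these fits are thus not comparable. Whether the 10 calls depend on a single DES section therefore cannot be told. Guca2b was again lower, at 16.8 and 8.42 CPM in CO and 0.437 and 0 CPM in DES (log2 -5.88 ± 0.90; edgeR adjusted p = 0.0281), and Sftpd, at 235 and 328 CPM in CO and 64.2 and 67.6 CPM in DES (log2 -2.41 ± 0.24; edgeR adjusted p = 0.0146). The DES level of Guca2b rested on hardly any UMIs, so the size of its fall is uncertain. Adamts9 (log2 -2.16), Nucb2 (log2 -2.12) and Lrrc31 (log2 -3.31) were the other falls among the 5 largest. The rises were Ces2b, at 23.1 and 17.1 CPM in CO and 104 and 226 CPM in DES (log2 2.71 ± 0.45; edgeR adjusted p = 0.0333), and Agps (log2 1.18). Prap1 was at 5149 and 55912 CPM in CO and 2716 and 4102 CPM in DES, which did not overlap and did not pass (log2 -3.45 ± 1.06; edgeR adjusted p = 0.116). The edgeR adjusted p of the other label markers ran from 0.173 for Sult1d1 to 0.763 for S100g.

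Within the CO sections 66 of 91 genes differed between epithelium-rich and other spots, 57 higher and 9 lower in epithelium-rich spots, where 27.1% of all genes were higher and 24.3% lower (51.5% in all). The p-values rest on a spread taken from the epithelium-rich and other spots of the CO and DES sections together. The section genes were chosen as at least 5-fold above CO cells that are not epithelial. A higher level in epithelium-rich spots therefore follows largely from the choice. The median log2 difference of the cluster 8 section genes was 0.87, against 0.08 over all genes. Without CO section 2 it was 0.45, with 42 genes higher and 14 lower, and DESeq2 called 44 of the 91 genes. Among the largest rises was that of Paqr5, at 34.4 and 28.7 CPM in epithelium-rich and 14.6 and 5.75 CPM in other spots (log2 1.75 ± 0.24; edgeR adjusted p = 0.000106), beside Cmtm8 (1.61), Hoxb6 (1.49) and Chdh (1.48). Prap1 was higher by 1.49 ± 0.13 on the log2 scale (edgeR adjusted p = 2.94e-06) and Sult1d1 by 0.65 ± 0.20 (0.0159), while Napsa did not pass (log2 0.62; 0.0504).

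Gpx3 went the other way. It was at 42.1 and 59.8 CPM in the epithelium-rich spots and 205 and 840 CPM in the other spots (log2 -3.01 ± 0.28; edgeR adjusted p = 5.26e-06), so that most Gpx3 RNA of a section lay outside the epithelium-rich spots although cluster 8 stood 12.7-fold above other epithelial cells. Fgfr2 (log2 -2.33 ± 0.29; edgeR adjusted p = 5.2e-05), Efhd1 (-2.04), Igfbp3 (-1.47) and Enah (-0.70) were also lower in epithelium-rich spots. The pan-epithelial genes that chose these spots were themselves lower in cluster 8 than in other epithelium (median ratio 0.524). The choice may thus pass over gland spots, and the share of gland in the epithelium-rich spots was not tested. In section CO 2 the deposited spot clusters 1, 3 and 7 held Gpx3 at 1315, 1644 and 1864 CPM, against 52.6 CPM in cluster 2, with 233 of its 339 spots epithelium-rich. Sult1d1 was at 19.4, 30.3 and 91.6 CPM in clusters 1, 3 and 7 and at 117 CPM in cluster 2. Cluster 5 of section CO 2 held Gpx3 at 853 CPM with Sult1d1 at 8.03 CPM. Cluster 6 of section CO 1 held Gpx3 at 591 CPM with Sult1d1 at 0 UMIs. Which cells gave the Gpx3 of these spots was not tested. S100g did not pass (adjusted p = 0.315) and differed between sections, at 98.3 CPM in epithelium-rich and 407 CPM in other spots of section CO 1 but at 738 and 469 CPM in section CO 2. In section CO 1 the spot clusters 2 and 4 of the deposited annotation, none of whose spots were epithelium-rich, held S100g at 821 and 1012 CPM, while cluster 1, with 167 of its 240 spots epithelium-rich, held 102 CPM of S100g and 5243 CPM of Prap1. Prap1 was at 151 and 492 CPM in spot clusters 2 and 4. Spots rich in Prap1 and spots rich in S100g were thus not the same in that section. Since a spot can hold several cells, these values do not bear on single cells of cluster 8. Spot cluster 5 of section CO 1 had the highest Sult1d1 of that section, at 36.0 CPM, with Prap1 at 627 CPM. It held S100g at 59.5 CPM and Gpx3 at 188 CPM, and of its 140 spots 22 were epithelium-rich. The study placed glandular epithelium in that spot cluster because Foxa2 and Sult1d1 were high there.

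The step from other to epithelium-rich spots differed between DES and CO for 20 of 91 section genes by edgeR. The log2 difference of the steps, DES minus CO, was above 0 for 1 gene and below 0 for 19, where 6.42% of all genes passed in each direction (12.8% in all), and without CO section 2 these counts were 9 and 20. With DESeq2 10 section genes passed, where calls over all genes fell from 1748 to 719. The median log2 difference of the section genes was -0.46, or -0.48 without DES section 1 and -0.27 without DES section 2. With 1 DES section left the spread came from the 2 CO sections alone, so whether the 20 calls hold cannot be told. The genes were chosen on CO cells as high over cells that are not epithelial, which favours a larger step in CO. The 1 gene above 0 was Fgfr2, whose step was downward in CO (log2 -2.33 ± 0.29) and close to absent in DES, a difference of 2.11 ± 0.39 (edgeR adjusted p = 0.00583, or 0.0820 without DES section 1), with 4.73 and 15.9 CPM in epithelium-rich and 52.2 and 51.0 CPM in other spots of CO, and 47.2 and 41.9 CPM against 47.5 and 51.7 CPM in DES. For Wnt7b the upward step of CO was smaller in DES, by a log2 difference of -1.32 ± 0.18 (edgeR adjusted p = 0.00113), with 60.7 and 40.2 CPM in epithelium-rich and 23.8 and 15.1 CPM in other spots of CO, and 125 and 104 CPM against 104 and 95.8 CPM in DES. Between DES and CO epithelium-rich spots Wnt7b did not pass (log2 0.85 ± 0.27; edgeR adjusted p = 0.127), and other spots were not tested between DES and CO. For Prap1 the difference was -0.78 ± 0.17 (edgeR adjusted p = 0.0151, or 0.235 without DES section 1 and 0.425 without DES section 2). Napsa, S100g, Sult1d1 and Gpx3 did not pass, with adjusted p from 0.0778 for Gpx3 to 0.553 for S100g.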

How the data were processed

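The authors aligned the single-cell reads with Cell Ranger 3.0.1 and the section reads with Space Ranger 1.2.2 to mouse build mm10, examined barcode swapping with DropletUtils and removed doublets with scran before annotation. They deposited raw UMI counts per gene, and cell tables with clusters and a saturation value, a fraction per cell per the file headers, which was only checked. Per-sample columns not used numbered 0. The cells and the gene lists were chosen with earlier results of these data known.

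UMI counts were summed over the cells of each cluster and scaled to CPM. Ratios used a minimum of 10 CPM for lists and 50 CPM for named genes, and shares used cells thinned to 3000 UMIs (5000 in an alternative). Named genes were the 15 highest and 10 lowest ratios against other epithelial cells, the 10 highest and lowest against clusters 3 and 13 and between gland groups 0 and 4, the 10 highest variance-to-mean ratios at 100 CPM, and in each section test up to 5 rises and 5 falls that passed without overlap, plus the 5 markers. Members of the lists were named beside them, and 1 gene that the rule named is not reported here.

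UMIs summed per section were tested with edgeR 4.0.16 (quasi-likelihood, TMM, filterByExpr, Benjamini-Hochberg at 0.05) in R 4.3.3, with the section as a block for epithelium-rich against other spots. The 7 genes that chose the epithelium-rich spots were left out of the tests. Alternatives were DESeq2 1.42.0, its size factors, other filters, other shares of spots, a replicate block and leaving out each section. In simulated data 99 to 100% of genes changed by a log2 of 2 were recovered in each test, and of those changed by a log2 of 1, 81% in whole sections, 73% in epithelium-rich spots, 75% between spots of CO and 34% for the difference between steps, so that a marker that did not pass there may differ. The simulation gave every gene the same spread between sections and changed only genes above a minimum level. Markers such as Prap1 differed widely between the CO sections, so these rates may overstate what the tests recover. The sections are from separate mice, and their number limits the precision. Python 3.11.15, scipy 1.17.1 and matplotlib 3.10.9 were used.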

Additional observations from a re-analysis of the deposited data

Results flagged for a closer look

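For 6 section genes described in cluster 8, the log2 step from other to epithelium-rich spots differed between DES and CO sections by a test of the difference itself (edgeR quasi-likelihood interaction, Benjamini-Hochberg adjusted p). The difference, DES minus CO, was -1.43 for Cdo1 (adjusted p = 0.000608), -1.40 for Lifr (0.00636), -1.39 for Paqr5 (0.0165), -1.32 for Wnt7b (0.00113), -0.78 for Prap1 (0.0151) and 2.11 for Fgfr2 (0.00583). Without DES section 1 the adjusted p was 0.0820 for Fgfr2, 0.0817 for Lifr, 0.228 for Paqr5 and 0.235 for Prap1, and without DES section 2 it was 0.138 for Lifr and 0.425 for Prap1, so these 4 calls were lost, while Cdo1 and Wnt7b passed when either was left out. With 1 DES section left the spread came from the 2 CO sections alone. A lost call thus does not tell whether the difference itself became smaller. Cdo1, an enzyme of cysteine breakdown, was at 74.4 and 110 CPM in epithelium-rich and 28.8 and 41.3 CPM in other spots of CO, and at 123 and 121 CPM against 106 and 122 CPM in DES. Paqr5 was at 48.1 and 65.3 CPM in epithelium-rich and 42.9 and 41.0 CPM in other spots of DES. For Lifr, a receptor of the LIF family, the DES values were 15.3 and 9.91 CPM in epithelium-rich and 18.3 and 15.9 CPM in other spots, against 27.1 and 84.2 CPM and 14.7 and 49.5 CPM in CO.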

How the results depend on the processing

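The count of 233 genes was 699 at a minimum of 10 CPM, 412 at 1.5-fold and 84 at 4-fold. Of 408 values of ratios under alternatives 349 stayed within their counting interval, 59 moved beyond it, 14 of the 408 by over 1.5 times, and 0 reversed, and the planned doublet filter left 4 of 123 cells and could not be used, so a filter on fewer lists, chosen after seeing the data, replaced it. For DES against CO whole sections, 13 genes passed, 34 with DESeq2, 8 with the section letter as a replicate block, and from 0 (without DES 1, and without DES 2) to 53 (without CO 1; 34 without CO 2). In epithelium-rich spots 10 passed, 23 with DESeq2, 28 with all genes of at least 1 count, 17 with the block, and from 0 (without DES 1, 30 at an unadjusted p under 0.05 by edgeR, and without DES 2, 27) to 61 (without CO 1; 47 without CO 2). Of the difference between steps 20 passed, 10 with DESeq2, 34 with all genes of at least 1 count, and from 3 (without DES 1; 5 without DES 2) to 49 (without CO 1). The cause was not tested. The letters of the sections did not pair them (correlation of deviations -0.026 over 14075 genes). Over all genes the count of 747 in whole sections was 1791 with DESeq2, 2819 without CO 1, 2336 without CO 2, 14 without DES 1 and 3 without DES 2. The count of 758 in epithelium-rich spots was 1296 with all genes of at least 1 count, 3061 without CO 1, 2990 without CO 2, 0 without DES 1 (1350 at an unadjusted p under 0.05 by edgeR) and 1 without DES 2. The counts for the comparison of spots within CO were 7004 and, with DESeq2, 4375, and for the difference between steps 1748 and 719. For the difference between steps the count was 2473 with all genes of at least 1 count. With a section left out, its median log2 value over all genes ran from -0.07 without CO 1 to 0.01 without DES 2. The median over the section genes ran from -0.68 without CO 1 to -0.17 without CO 2. Marker values that changed sign when 1 section was left out, with the lowest and highest log2 value, were Napsa in whole sections (-1.74 without DES 1 to 0.10 without CO 2), Gpx3 in epithelium-rich spots (-1.14 without DES 1 to 0.14 without DES 2), and S100g in epithelium-rich spots (-1.30 without CO 1 to 1.58 without CO 2, and 0.12 with the block), in the comparison of spots (-1.96 without CO 2 to 0.72 without CO 1) and in the difference between steps (-0.66 without CO 1 to 2.01 without CO 2), none of which had passed with all sections, while S100g passed at -1.30, -1.96 and 2.01. Of 457 values of section genes under alternatives 6 changed sign, 359 kept direction and side of the threshold, 57 lost it and 35 gained it.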
